A study of Mus musculus with 10 samples.

Results

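Mitochondrial ribosomal proteins are encoded in the nucleus, made in the cytosol and imported into mitochondria, where they assemble with 2 mitochondrially encoded ribosomal RNAs into a large and a small subunit. The resulting ribosome translates the mitochondrially encoded subunits of the respiratory chain. Some of its proteins have bacterial counterparts and others are found only in mitochondrial ribosomes. The genes were taken by symbol, as protein-coding genes named Mrpl or Mrps followed by a digit, with 5 pseudogenes left out. That gave 78 genes (49 Mrpl and 29 Mrps) of the 55414 gene identifiers in each count table. By known role, 29 encode large subunit proteins with a bacterial counterpart and 22 encode mitochondria-specific large subunit proteins, among them Mrps30 and Mrps18a in spite of their names. Another 16 encode small subunit proteins with a bacterial counterpart, and 10 encode mitochondria-specific small subunit proteins. Mrps36 carries the name only, since its product is known as a component of the 2-oxoglutarate dehydrogenase complex.

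RNA sequencing compared macrophages sorted as having taken up apoptotic cells (Eff+) with those sorted as not having done so (Eff-). Wound Eff+ and wound Eff- macrophages (3 libraries each) came from skin wounds at day 3. The labels give LysMCreER/mTmG mice and 6 days of tamoxifen for all 6, that is, a tamoxifen-inducible Cre expressed from the lysozyme M locus and a recombination reporter. Culture Eff+ and culture Eff- macrophages (2 libraries each) were grown from wild-type bone marrow with GM-CSF, a myeloid growth factor, for 7 days, and the labels of all 4 list apoptotic fibroblasts, given for 12 h. The column names of culture Eff- carry the letters NOAC, so it is unclear whether those cells had met apoptotic cells, and no age of any mouse is given in the sources used here.

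Wound libraries held 39735437 to 57308823 counts and culture libraries 17622740 to 27261880. In the wound, all 12 macrophage markers examined passed the filter on low counts, but Lyz2, which encodes lysozyme M, stood at 3417 CPM (counts scaled to a common library size) in Eff+ 2 and 6567 CPM in Eff- 2 and at 3.67 to 8.89 CPM in the other 4 libraries, so results are also given without the 2 libraries numbered 2. All 6 carry 1 genotype label, and whether the mice behind the libraries numbered 2 had the same LysMCreER genotype was not tested. In culture, counts fell on 35649 genes in Eff+ 1 and 44836 in Eff- 1, but on 19649 in Eff+ 2 and 18171 in Eff- 2. Of the 78 genes, 77 passed the filter in each experiment. Mrpl53 did not pass: it had 0 counts in every wound Eff+ library and 0, 4 and 0 in wound Eff-, and 1 and 0 in culture Eff+ and 0 and 0 in culture Eff-. In the annotation, 88.0% of its exon bases also belong to another gene.

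The genes lay on 17 chromosomes, and their annotated exons covered between 607 and 8631 bases, with a median of 2394. Many start beside another gene. For 33 of the 78 (42.3%), the annotated start of a protein-coding gene on the opposite strand lay within 1000 bases, against 2367 of all 21927 protein-coding genes (10.8%). RefSeq promoter windows (GRCm38.p6, 250 bases before to 50 after the start, on the strand of the gene) matched 69 of the 78. Both strands were searched for letters typical of 3 factors known to act on nuclear genes of mitochondrial proteins. The first was GCATGCGC, for nuclear respiratory factor 1. The second was CCGGAAG, for ETS-family factors such as GA-binding protein. The third was AANATGGC, for YY1. The ETS letters were in 37.7% of the 69 windows, against 12.9% of the 17491 protein-coding genes in the RefSeq table. The YY1 letters were in 30.4%, against 7.46%, and the nuclear respiratory factor 1 letters in 11.6%, against 3.93%. At least 1 of the 3 was found in 42 of the 69 windows. These matches are descriptions of sequence and do not show binding. Windows of 4 genes to which the wound results refer follow, with the matched letters in capitals. Mrpl33 was the gene that rose, Mrps7 the one that fell with the smallest p-value, Mrpl3 the one that fell most, and Mrps11 the one whose start region is shared with another of the 78, Mrpl46. Mrpl33 (chr5:31613701-31614000, plus strand) and Mrpl3 (chr9:105053018-105053317, plus strand) hold the ETS letters, and Mrpl33 also holds the nuclear respiratory factor 1 letters on its other strand, beside them. Mrps7 (chr11:115603890-115604189, plus strand) holds the YY1 letters, and Mrps11 (chr7:78782881-78783180, plus strand) holds them on its other strand. The windows of Mrps11 and Mrpl46 overlap by 141 bases.
Mrpl33: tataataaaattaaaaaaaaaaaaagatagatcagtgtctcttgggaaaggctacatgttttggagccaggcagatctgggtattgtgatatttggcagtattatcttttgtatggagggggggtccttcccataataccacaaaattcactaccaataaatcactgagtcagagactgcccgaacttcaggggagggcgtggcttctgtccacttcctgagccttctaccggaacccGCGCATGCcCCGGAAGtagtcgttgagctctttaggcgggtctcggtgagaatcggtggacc
Mrps7: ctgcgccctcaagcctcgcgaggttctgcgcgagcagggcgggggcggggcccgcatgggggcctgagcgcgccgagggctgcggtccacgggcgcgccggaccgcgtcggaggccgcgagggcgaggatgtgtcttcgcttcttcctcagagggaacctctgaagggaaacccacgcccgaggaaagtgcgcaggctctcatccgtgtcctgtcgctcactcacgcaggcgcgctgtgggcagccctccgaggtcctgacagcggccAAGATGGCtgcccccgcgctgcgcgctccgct
Mrpl3: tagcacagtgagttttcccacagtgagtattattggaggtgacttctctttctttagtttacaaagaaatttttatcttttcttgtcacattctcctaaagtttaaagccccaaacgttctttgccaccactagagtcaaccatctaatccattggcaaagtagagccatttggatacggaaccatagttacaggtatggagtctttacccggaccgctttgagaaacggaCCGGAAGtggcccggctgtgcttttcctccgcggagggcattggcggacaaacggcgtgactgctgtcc
Mrps11: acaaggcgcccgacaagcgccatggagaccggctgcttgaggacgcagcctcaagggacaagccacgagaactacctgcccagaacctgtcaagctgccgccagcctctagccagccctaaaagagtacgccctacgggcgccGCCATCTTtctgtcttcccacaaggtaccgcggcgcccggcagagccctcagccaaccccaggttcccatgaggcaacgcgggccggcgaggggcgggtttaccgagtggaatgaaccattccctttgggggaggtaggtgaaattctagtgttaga

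In the wound, the question was what sets macrophages with engulfed apoptotic cells apart from those without. In wound Eff+ macrophages, 12 mitochondrial ribosomal protein genes fell and 1, Mrpl33, rose (edgeR quasi-likelihood test, adjusted p under 0.05 over 14908 genes). Among all genes tested, 3.79% were called lower and 7.39% higher. The log2 fold change was negative for 72 of the 77 genes, against 51.3% of all genes tested. Its median was -0.55 over the 77, beside -0.03 over all genes. In 46 of the 77, every Eff+ library was below every Eff- library, against 18.1% of all genes, and in 3 every Eff+ library was above, against 18.7%. The unadjusted p was under 0.05 for 43 of the 77, against 4454 of the 14908 genes.

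As a share of all counts, the 78 genes took 0.150, 0.112 and 0.133% in wound Eff+ and 0.232, 0.255 and 0.197% in wound Eff-. The groups did not overlap in this share. Eff+ 2 was the lowest of the 6 libraries for 42 of the 77 tested genes, and Eff- 2 the highest for 43. In bulk libraries, a lower share of cells that express these genes and less of their RNA per cell cannot be told apart.

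**Figure D1:**
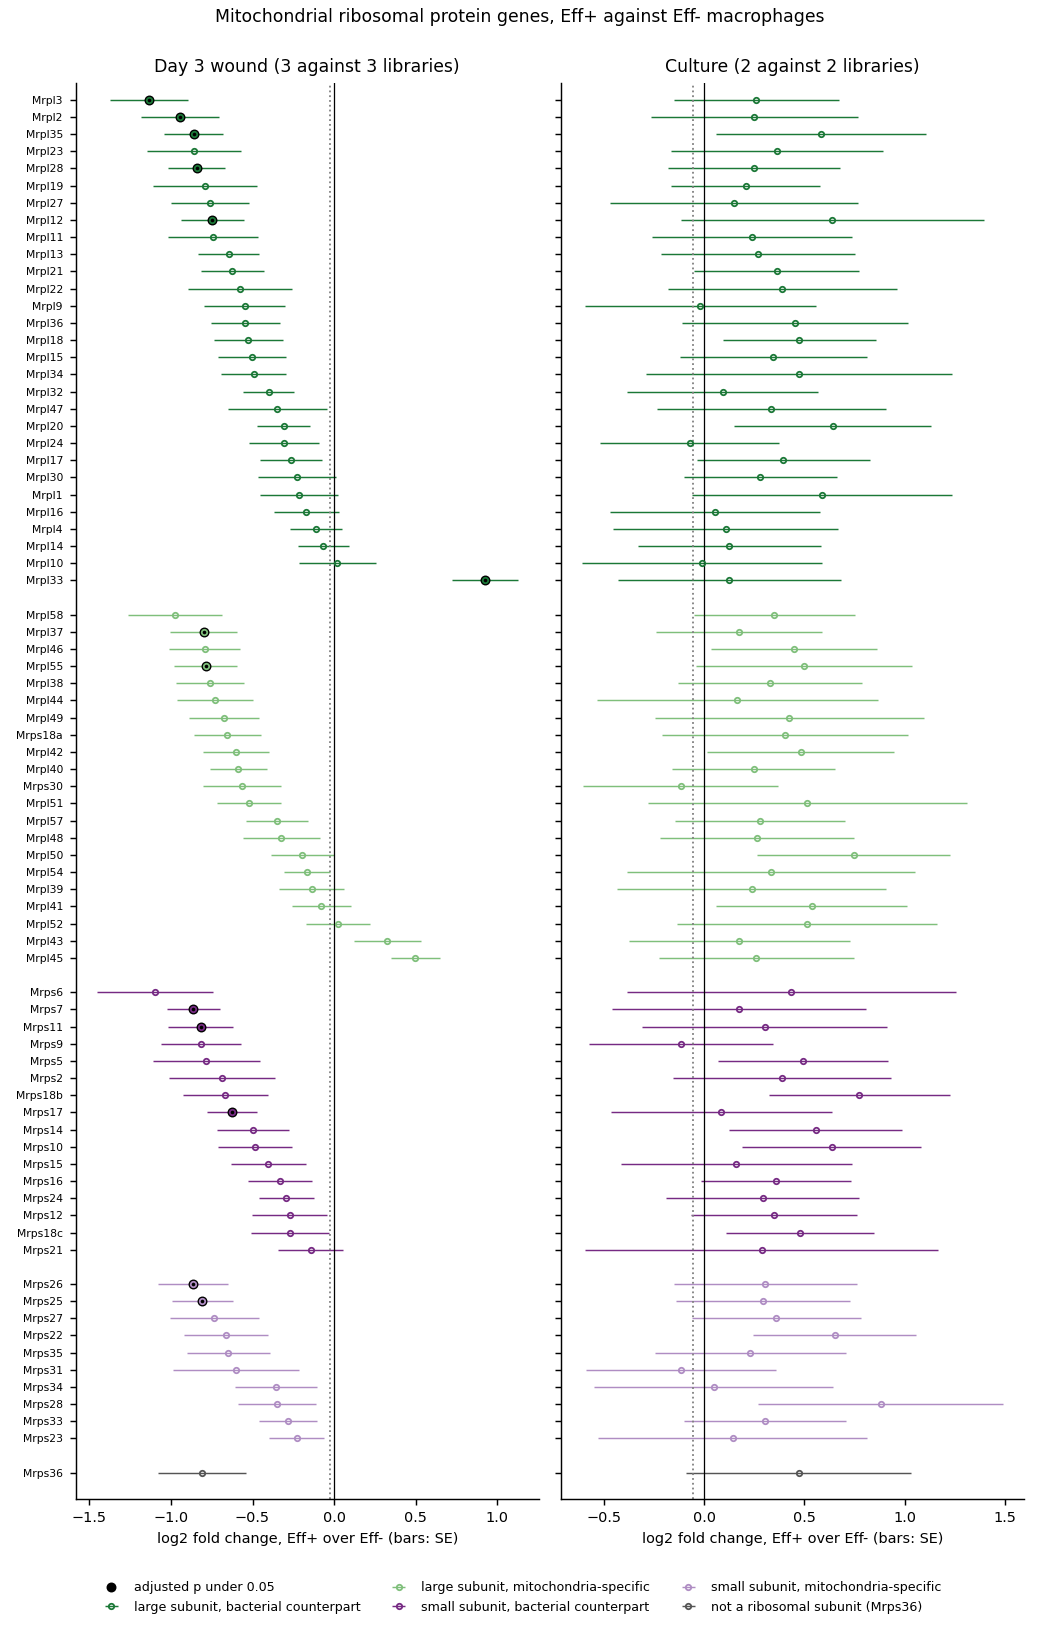
Log2 fold change (Eff+ over Eff-, horizontal axis, bars are standard errors) of the 77 tested genes in the wound (left) and in culture (right), grouped by role; black points passed the test, and the dotted line is the median of all genes tested. In the wound 72 of the 77 points lie left of 0 and Mrpl33 lies at 0.93, while in culture 71 lie right of 0 and none passed the test.

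Of the 29 large subunit genes with a bacterial counterpart, 5 fell and 1 rose, with a median log2 fold change of -0.53. Mrpl3 (ENSMUSG00000032563, GRCm39 chromosome 9, 104930438 to 104957087), which encodes a core rRNA-binding protein, had 11.3, 8.70 and 14.0 CPM in Eff+, against 24.97, 28.8 and 21.0 CPM in Eff-. Each Eff+ value was below each Eff- value, and the log2 fold change was -1.14 ± 0.24 (SE; edgeR adjusted p = 0.0260). Mrpl2, whose product lies near the peptidyl transferase centre, averaged 16.7 ± 3.79 CPM in Eff+ and 32.2 ± 6.09 CPM in Eff- (SD, n = 3 each), 1.93-fold lower (edgeR adjusted p = 0.0441). Mrpl28 (ENSMUSG00000024181, chromosome 17, 26342474 to 26345587) had 39.9, 30.6 and 35.6 CPM in Eff+ and 70.0, 66.0 and 54.2 CPM in Eff-. It was the highest of the 12 that fell, again with no overlap between groups (log2 fold change -0.84 ± 0.17, SE; edgeR adjusted p = 0.0252). Mrpl35 averaged 14.7 ± 1.35 CPM in Eff+ and 26.6 ± 2.83 CPM in Eff- (SD, n = 3 each; edgeR adjusted p = 0.0261). Mrpl12, which forms the factor-binding stalk of the large subunit and is also known to bind mitochondrial RNA polymerase, had 15.3, 14.8 and 18.4 CPM in Eff+, against 28.5, 29.9 and 22.9 CPM in Eff- (edgeR adjusted p = 0.0465).

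Mrpl33 (ENSMUSG00000106918, chromosome 5, 31754279 to 31821728), a small protein of the large subunit, went the other way. It had 111, 71.9 and 75.9 CPM in Eff+, against 49.3, 43.7 and 43.4 CPM in Eff-. All 3 Eff+ libraries were above all Eff- libraries, with Eff+ 1 the highest, and the log2 fold change was 0.93 ± 0.20 (SE; edgeR adjusted p = 0.0289). Scaled by library totals only, it was 0.54 and missed the threshold (edgeR adjusted p = 0.107). Of its exon bases, 3.6% are shared with another gene.

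Among the mitochondria-specific large subunit genes, 2 of 21 tested fell, with a median of -0.56. Mrpl37 averaged 27.2 ± 4.94 CPM in Eff+ and 47.3 ± 8.07 CPM in Eff- (SD, n = 3 each; edgeR adjusted p = 0.0448). Mrpl55 averaged 11.3 ± 0.974 CPM in Eff+ and 19.4 ± 2.15 CPM in Eff- (SD, n = 3 each; edgeR adjusted p = 0.0405). Mrpl58, a peptidyl-tRNA hydrolase that rescues stalled ribosomes, had 17.9, 8.79 and 10.6 CPM in Eff+, against 25.6, 26.4 and 21.2 CPM in Eff-. Its groups did not overlap, but it missed the threshold (log2 fold change -0.98 ± 0.29, SE; edgeR adjusted p = 0.0659). Mrpl45, whose product sits at the exit of the ribosome where new proteins meet the inner membrane, had 55.5, 63.8 and 57.7 CPM in Eff+, against 39.3, 39.5 and 46.5 CPM in Eff-. It was higher in every Eff+ library and missed the threshold (log2 fold change 0.50 ± 0.15, SE; edgeR adjusted p = 0.0721). Mrpl43 was the third gene with Eff+ above Eff- in every library, at 12.4, 13.2 and 10.9 CPM in Eff+ and 9.44, 10.5 and 9.15 CPM in Eff- (edgeR adjusted p = 0.333). It shares 33.4% of its exon bases with Twnk on the opposite strand, and scaled by library totals only its log2 fold change was -0.07.

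All 26 small subunit genes had negative log2 fold changes, and 5 of them fell. Of these, 3 were among the 16 with a bacterial counterpart (median -0.56) and 2 among the 10 mitochondria-specific ones (median -0.62). Mrps7 (ENSMUSG00000046756, chromosome 11, 115494751 to 115498862), which organises the head of the small subunit, had 18.0, 18.3 and 20.8 CPM in Eff+, against 35.3, 36.5 and 32.1 CPM in Eff-. The groups were well apart, and its p-value was the smallest of the 77 (log2 fold change -0.86 ± 0.16, SE; edgeR adjusted p = 0.0200). Mrps11 had 9.99, 8.59 and 11.1 CPM in Eff+, against 17.8, 17.9 and 16.7 CPM in Eff- (edgeR adjusted p = 0.0381). Mrps17 averaged 21.1 ± 1.14 CPM in Eff+ and 32.5 ± 1.42 CPM in Eff- (SD, n = 3 each), the smallest change among those called (1.54-fold lower; edgeR adjusted p = 0.0403). Mrps26 averaged 10.7 ± 1.97 CPM in Eff+ and 19.5 ± 2.05 CPM in Eff- (SD, n = 3 each; edgeR adjusted p = 0.0416). Mrps25 averaged 10.8 ± 0.105 CPM in Eff+ and 19.0 ± 2.03 CPM in Eff- (SD, n = 3 each; edgeR adjusted p = 0.0345). Mrps25 shares 69.8% of its exon bases with Nr2c2 on the opposite strand, and the counting command names no strand option, so reads of these genes cannot be told apart.

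**Figure D2:**
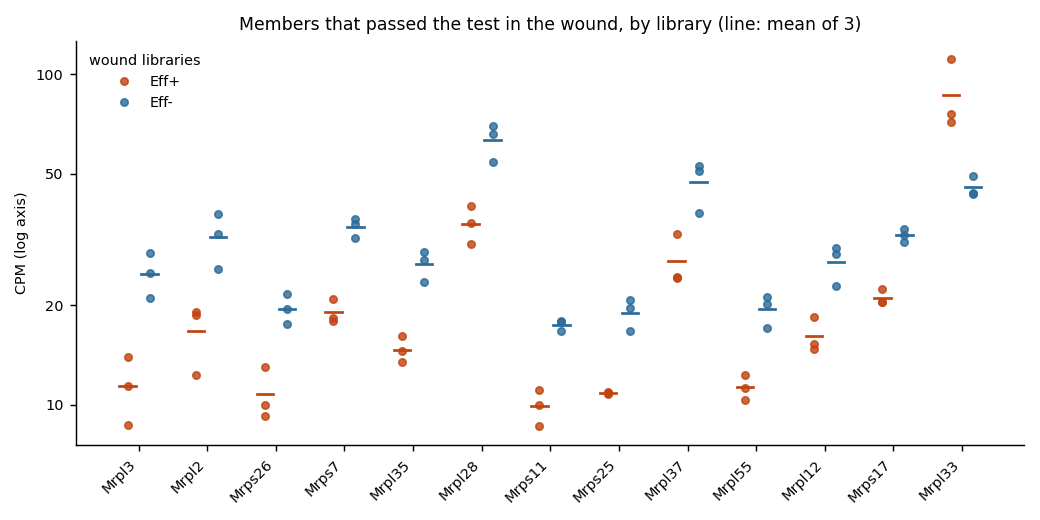
CPM (vertical log axis) in each wound library for the 13 genes that passed the test, ordered by fold change, with Eff+ (orange, left) and Eff- (blue, right) for each gene; points are libraries and lines are means of 3. The Eff+ points lie below the Eff- points for 12 genes and above them for Mrpl33.

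Several other genes missed the threshold in the wound. Mrps6 had the second most negative log2 fold change at low levels, 2.87 ± 0.552 CPM in Eff+ and 6.14 ± 2.08 CPM in Eff- (SD, n = 3 each; edgeR adjusted p = 0.0859). The related genes Mrps18a, Mrps18b and Mrps18c had log2 fold changes of -0.65, -0.67 and -0.27. Mrps12, part of the decoding centre, and Mrps22 had -0.27 and -0.66, and the large subunit genes Mrps30, Mrpl44 and Mrpl41 had -0.56, -0.73 and -0.08. Mrps36, the gene outside the ribosome, had 4.61, 3.64 and 4.80 CPM in Eff+, against 8.68, 7.69 and 6.54 CPM in Eff-, and also missed the threshold (log2 fold change -0.81 ± 0.27, SE; edgeR adjusted p = 0.0896). Levels per length differed widely between the genes. Over the wound libraries, mean CPM per kilobase of exon was 68.0 for Mrpl54, 42.0 for Mrps21 and 36.0 for Mrpl14. It was 0.748 for Mrps35, 1.07 for Mrpl47 and 1.23 for Mrps5. The divisor was the length of all annotated exons, and these levels depend on it. That length was 825, 739 and 949 bases for Mrpl54, Mrps21 and Mrpl14, and 8631, 4419 and 6578 bases for Mrps35, Mrpl47 and Mrps5. The median CPM per kilobase of large subunit genes was 2.47, 2.54 and 2.11 times that of small subunit genes in Eff+, and 1.97, 1.99 and 1.81 times in Eff-. The groups did not overlap in this ratio, which was computed after the values were seen and was not tested. It sets medians over different genes side by side, with the same length as divisor. The median log2 fold changes per gene were -0.53 and -0.56 for the large subunit roles and -0.56 and -0.62 for the small subunit roles.

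The calls in the wound depended on which libraries entered the fit. Leaving out any single library left between 0 and 11 genes called lower, and none without Eff+ 2, without Eff- 1 or without Eff- 2. Calls over all genes fell as well, with 0 of 15804 genes lower without Eff+ 2, 55 of 16170 without Eff- 1 and 8 of 15979 without Eff- 2. Without Eff+ 3 there were 2 of the 77 lower, against 190 of all 15692 genes, and without Eff- 3 there were 5, against 225 of 16049. Without Eff+ 1 there were 11 called lower and 1 higher, against 454 and 893 of all 15789 genes, and 5 of these 12 were among the original 13. The median stayed between -0.65 and -0.45. Without both libraries numbered 2, none of the 77 and none of all 15223 genes passed edgeR's test (2212 of all at an unadjusted p under 0.05), and the median was -0.37, with 72 of 77 genes still negative and the median of all genes at -0.0005. Scaling by library totals alone gave 49 lower and 0 higher, against 2654 and 714 of all genes, and moved the median of all genes to -0.42. The distance of the 77 from all genes was -0.52 with that scaling and -0.52 with the default.

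**Figure D3:**
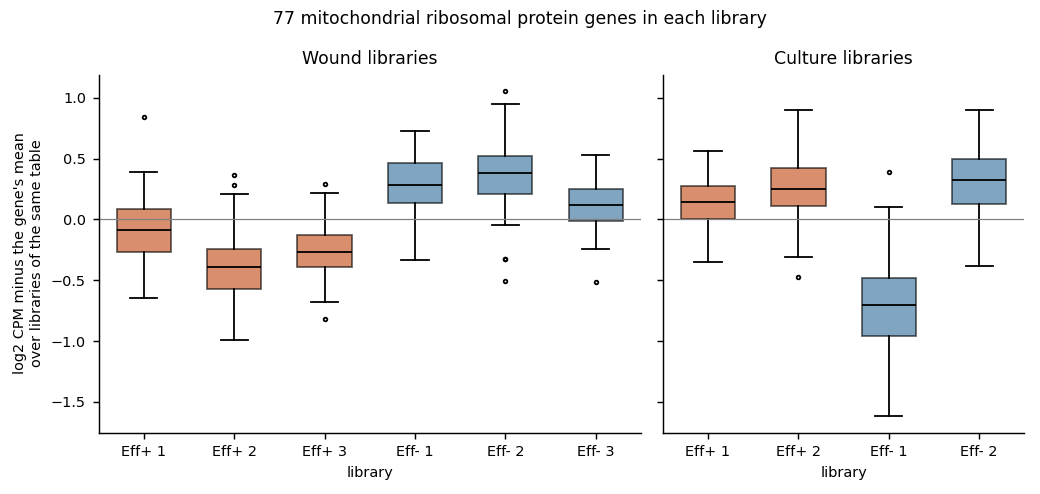
Spread over the 77 tested genes of log2 CPM minus the mean of the gene over the libraries of the same experiment (vertical axis), for each library, with Eff+ (orange) left of Eff- (blue); boxes span the quartiles, lines are medians, whiskers reach 1.5 times the box and points lie beyond. All 3 wound Eff+ medians lie below all 3 wound Eff- medians, while in culture Eff- 1 stands alone at -0.70.

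Markers of other cells moved with the wound groups. Neutrophil markers took 3.27 to 4.14% of counts in Eff+ and 0.660 to 1.18% in Eff-, and 17 of 22 tested rose. None of the 24 listed was at 0 in every Eff- library. Fibroblast markers took 0.0756 to 0.244% in Eff+ and 0.0278 to 0.147% in Eff- (2 of 16 rose). Keratinocyte markers took 0.00374 to 0.00731% in Eff+ and 0.000579 to 0.00194% in Eff-, where 9 of 12 were at 0. In the other lists, 1 of 8 tested muscle and adipocyte markers rose, and none of 4 T and NK cell or 9 dendritic cell markers passed edgeR's test. Macrophage markers took 2.10 to 2.70% in Eff+ and 1.89 to 2.86% in Eff-, with Cd14 higher and Adgre1, C1qa and C1qb lower. With the genes of all marker lists, macrophage markers included, removed before scaling, 12 of the 77 were again called lower and 1 higher. Of all 14833 genes then tested, 562 were lower and 1086 higher. This removed the listed genes only, and not other RNA of the same cells. The part of RNA from neutrophils or other cells in these differences was not tested.

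Other genes of mitochondrial translation were read from lists. Of 14 tested translation factors 2 fell, and their median was -0.77. Tsfm, the mitochondrial elongation factor Ts, had 6.33, 5.38 and 7.15 CPM in Eff+, against 15.0, 15.7 and 11.4 CPM in Eff- (log2 fold change -1.16 ± 0.24, SE; edgeR adjusted p = 0.0249). Lrpprc, which stabilises mitochondrial mRNAs, had 10.3, 8.01 and 10.5 CPM in Eff+, against 15.1, 27.2 and 21.4 CPM in Eff- (edgeR adjusted p = 0.0336). Among 17 mitochondrial aminoacyl-tRNA synthetases, which charge tRNAs, Rars2 and Sars2 fell (log2 fold changes -0.94 and -1.11; edgeR adjusted p = 0.0302 and 0.0477). None of 24 assembly and rRNA maturation genes (median -0.47), 5 other mitoribosomal subunit genes (-0.46), 6 mitochondrial transcription genes (-0.34), 11 mitochondrially encoded mRNAs (-0.62) or 2 mitochondrial rRNAs (0.31) passed edgeR's test. Mitochondrial rRNAs carry only short poly(A) tails, and the labels give polyadenylated RNA as the molecule sequenced.

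Regulators of nuclear genes for mitochondria formed another list. Of 8 tested, 2 rose and none fell, with a median of 0.08. Gabpb1, a subunit of the ETS-family GA-binding protein, had 122, 142 and 115 CPM in Eff+, against 63.7, 44.4 and 59.9 CPM in Eff- (log2 fold change 1.17 ± 0.19, SE; edgeR adjusted p = 0.0130). Nrf1, nuclear respiratory factor 1, had 62.3, 71.6 and 60.6 CPM in Eff+, against 30.6, 41.4 and 43.4 CPM in Eff- (log2 fold change 0.75 ± 0.18, SE; edgeR adjusted p = 0.0384). Yy1 had 19.96, 20.3 and 23.3 CPM in Eff+, against 26.4, 20.7 and 20.5 CPM in Eff-, and did not pass (edgeR adjusted p = 0.784). Of the 12 ribosomal protein genes that fell, 2 hold the ETS letters, 4 the YY1 letters and 0 the nuclear respiratory factor 1 letters in their promoter window.

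Nuclear respiratory chain subunits and cytosolic ribosomal proteins were set beside the mitochondrial ribosomal proteins as the most similar groups. In wound Eff+, 7 of 80 respiratory chain genes fell and none rose, with 73 negative and a median of -0.39. Of 84 cytosolic ribosomal protein genes, 6 fell and none rose, with 79 negative and a median of -0.48. Every Eff+ library was below every Eff- library in 40 of the 80 and 60 of the 84, against 18.1% of all genes. In culture, only 5 of the 80 and 14 of the 84 were negative, against 53.8% of all genes. The difference between the experiments (wound minus culture) was negative for 75 of the 80 and 77 of the 84, against 41.4% of all genes. No test of a difference between these groups was made.

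Neighbours that start head to head gave a further comparison within the wound. Of 28 ribosomal protein genes with a tested neighbour outside the group, 27 had negative log2 fold changes, with a median of -0.52, against 17 of the 28 neighbours, with a median of -0.36. Among the neighbours Sars2 and Ndufb5 fell, and Pnpla7 and Rab6a rose. Mrps12 and Sars2, whose starts lie 172 bases apart, had log2 fold changes of -0.27 ± 0.23 and -1.11 ± 0.29 (SE). Mrpl49 and Fau, 59 bases apart, had -0.67 ± 0.22 and 0.41 ± 0.16 (SE). Mrps11 and Mrpl46, whose exons overlap, had values of -0.82 ± 0.20 and -0.79 ± 0.22 (SE), and 8.0% and 12.2% of their exon bases are shared. Mrpl49 and Fau, and Mrpl46, were named after their values were seen, and differences within pairs were not tested.

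The culture comparison set Eff+ against Eff- macrophages grown with GM-CSF. No mitochondrial ribosomal protein gene passed the test (edgeR quasi-likelihood, 0 of 77), where 0% of all 14867 genes passed in either direction. None of the 77 had an unadjusted p under 0.05, against 115 of all genes, and DESeq2 called none of the 77 and 2 of all genes. The log2 fold change was positive for 71 of 77 and negative for 6, against 53.8% negative among all genes, with a median of 0.30 beside -0.05 for all genes. In 16 every Eff+ library was above every Eff- library, against 11.3% of all genes, and in 0 below, against 9.42%. On simulated counts of this size, with 200 changed genes and no replicate pairing, the procedure called 0% of changes of 2-fold and of 4-fold. Under that setting such changes were not detectable, and other settings were not simulated.

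The direction in culture rested on 1 library. Eff- 1 was the lowest of the 4 for 73 of the 77 genes, and the 78 took 0.362 and 0.310% of counts in Eff+ and 0.249 and 0.297% in Eff-. Without Eff- 1 the median was -0.04 and 48 of the 77 were negative, beside 0.09 for all genes. Without Eff- 2 the median was 1.15, with 46 of 77 at an unadjusted p under 0.05, against 3047 of all 19909 genes. None of the 77 was then called by edgeR (smallest adjusted p = 0.0855), against 27 of all genes. Eff- 1 is also the library in which counts fell on the most genes. Macrophage markers took 1.95 and 5.63% of counts in Eff+ and 0.683 and 6.76% in Eff-, lowest in Eff- 1, and Cd68 had 1745 and 2089 CPM in Eff+ and 463 and 2089 CPM in Eff-. Neutrophil markers took 0.194 to 0.290% in Eff+ and 0.198 to 0.344% in Eff-, with 16 of 18 tested negative (median log2 fold change -1.54). None of the 24 listed was at 0 in every Eff- library, but some, such as S100a9 and Ngp, were at 0 in Eff+ 2. Mmp8 was the highest of them, at 1548 and 3036 CPM in Eff+ and 1025 and 3438 CPM in Eff-. Markers of dendritic cells took 0.00150 to 0.00465% of counts in Eff+ and 0.0165 to 0.0655% in Eff-, a median log2 fold change of -3.23 over 9 tested. None of the 10 listed was at 0 in every Eff- library, and Dpp4 was at 0 in Eff+ 2. No marker of these 3 lists passed edgeR's test, and their part in the result was not tested.

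Among the genes with the smallest p-values in culture, Mrps18b had 17.9 and 16.9 CPM in Eff+, against 7.99 and 12.3 CPM in Eff- (log2 fold change 0.77 ± 0.45, SE). Mrps22, a mitochondria-specific small subunit protein, had 28.6 and 20.5 CPM in Eff+, against 14.9 and 16.4 CPM in Eff- (0.65 ± 0.41). Mrps28 had the largest positive value, with 22.1 and 31.9 CPM in Eff+ and 7.86 and 21.4 CPM in Eff- (0.88 ± 0.61). In these genes both Eff+ libraries were above both Eff- libraries, with Eff- 1 lowest. Mrpl50 and Mrps10 did likewise, with log2 fold changes of 0.75 ± 0.48 and 0.64 ± 0.45 (SE). The most negative values were small: -0.12 for Mrps30, Mrps31 and Mrps9, and -0.07 for Mrpl24. Mrpl33, which rose in the wound, had 22.6 and 34.3 CPM in culture Eff+ and 15.8 and 36.3 CPM in culture Eff-, with overlap and a log2 fold change of 0.13 ± 0.55 (SE).

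**Figure D4:**
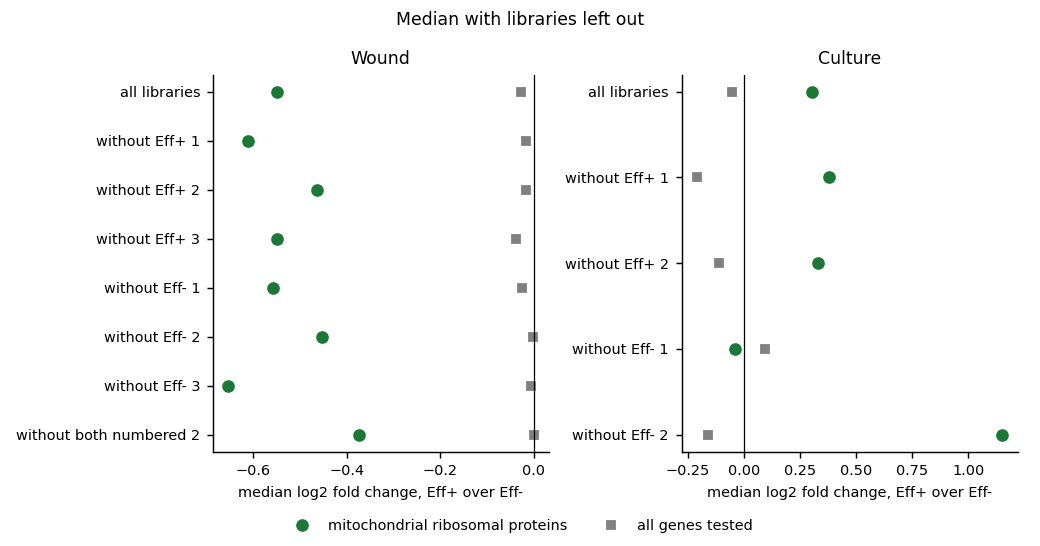
Median log2 fold change (Eff+ over Eff-, horizontal axis) of the 77 mitochondrial ribosomal protein genes (circles) and of all genes tested (squares) with all libraries and with the named libraries left out, in the wound (left) and in culture (right). The wound medians stay between -0.65 and -0.37, while in culture the median is -0.04 without Eff- 1 and 1.15 without Eff- 2.

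Whether the difference between Eff+ and Eff- itself differed between the wound and culture was tested in a fit over all 10 libraries. The log2 difference (wound minus culture) was negative for 73 of the 77 genes, against 41.4% of all 20270 genes tested, with a median of -0.89 beside 0.32 for all genes. None of the 77, and 0% of all genes, passed edgeR's test, while 20 of the 77 had an unadjusted p under 0.05, against 2222 of all genes. DESeq2 called 1 of the 77 lower, Mrps18b, against 141 of all genes lower and 644 higher. The smallest adjusted p in edgeR was that of Mrpl3 (log2 difference -1.38 ± 0.45, SE; adjusted p = 0.309). Without culture Eff- 2, 28 of the 77 passed, all lower, against 1128 of all 23641 genes lower and 881 higher. Without culture Eff- 1 none of the 77 passed, against 4 of all 19725 genes, and the median was -0.48, beside -0.27 for all genes.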

How the data were processed

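The deposited values are read counts per gene. Wound reads were counted by the authors with featureCounts 1.6.0 and the Ensembl release 106 annotation of GRCm39, per the file headers, without a strand option. Trimmomatic 0.39 is named in the submitters' processing notes. Neither the aligner nor the counting command behind the culture table is given in the sources used here. The culture table has 4 columns that no sample label matches, and these were left out. GENCODE vM21 gave the gene types, and 52133 of 55414 identifiers, with 99.92% of counts, had a symbol.

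The wound and culture tables were fitted separately (edgeR 4.0.16, R 4.3.3): TMM scaling, filterByExpr, a quasi-likelihood test without covariates, and Benjamini-Hochberg adjustment over all genes tested, with a threshold of 0.05. The interaction was fitted over all 10 libraries. Standard errors are log2 fold changes over the root of F, and CPM use TMM-scaled library sizes. Since the labels do not say whether replicates are different animals or cultures, the p-values reflect spread among these libraries, which may be technical. Simulated counts held 200 changed genes each time and no replicate pairing. With 3 libraries a group, the wound procedure called 6.25% of 2-fold and 47.9% of 4-fold changes and 2 of 14012 unchanged genes. For the interaction it called 0% of either.

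The genes, lists, tests and alternatives were chosen with earlier results of these data known. Members named are those called, those of largest change, the highest and lowest per kilobase, and fixed members; where fewer than 10 were called, the 5 of smallest p in each direction. From each list, up to 3 called genes in each direction are named. A few genes that these rules name are not reported here. Alternatives were other scalings, DESeq2 1.42.0, no filter on low counts, marker genes left out, a replicate block and each library left out.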

Additional observations from a re-analysis of the deposited data

Results flagged for a closer look

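In 8 of the 77 tested genes, every wound Eff+ library was below every wound Eff- library and every culture Eff+ library was above every culture Eff- library. Among all genes tested, 18.1% were lower without overlap in the wound and 11.3% higher without overlap in culture. Of the 77, 46 were lower without overlap in the wound and 16 higher without overlap in culture. The share of all genes with both was not computed, so the 8 cannot be called many or few. The test of the difference between the experiments (wound minus culture, log2, edgeR, adjusted over all genes) did not pass for any of the 8. The differences were -1.42 for Mrps18b (adjusted p = 0.341), -1.42 for Mrpl35 (0.333), -1.30 for Mrps22 (0.358), -1.26 for Mrps5 (0.439), -1.22 for Mrpl46 (0.348), -1.10 for Mrps10 (0.427), -0.93 for Mrpl20 (0.487) and -0.67 for Mrps16 (0.549). Under 18 alternatives each, none of the 8 changed sign. The 8 were chosen for groups apart in opposite directions in these same libraries. A change of sign was therefore unlikely from the start, and its absence is no support. DESeq2 called Mrps18b (adjusted p = 0.0463), and without culture Eff- 2 edgeR called Mrpl35 (0.00561), Mrpl20 (0.0221) and Mrps10 (0.0493). Culture Eff- 1 is the library that stood lowest for 73 of the 77 genes. Mrpl20, Mrpl46 and Mrps16 were named after their values were seen.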

How the results depend on the processing

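In the wound, relative log expression and upper quartile scaling, no filter and removal of marker genes gave 9 to 12 genes lower and 1 higher. Of all genes, these settings called 462 to 643 lower and 1086 to 1183 higher. Library totals gave 49 lower and 0 higher (median -0.94), against 2654 and 714 of all genes. DESeq2 gave 25 lower and 2 higher, against 1204 and 1931 of all genes. Leaving out both libraries numbered 2 gave 0 and 0 (median -0.37), and 0 of all genes. With 1 library left out, 0 to 11 were lower and 0 to 1 higher, and no call changed sign. In the interaction, DESeq2 called 1 and leaving out 1 library gave 0 to 28. The culture median ran from -0.038 to 1.15 with 1 library left out, and no setting called any of the 77 there; over all genes, DESeq2 and no filter each called 2, the block 48, leaving out Eff+ 1 25 and leaving out Eff- 2 27, and the other settings 0. All named list genes lost the threshold under at least 1 left-out library, and none changed sign.

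The replicate numbers were not treated as pairs in the wound, although Lyz2 was high in both libraries numbered 2: same-numbered deviations correlated at 0.247, -0.0111 and 0.133, and not every library correlated best with its own number. In culture, with 2 libraries a group, same-numbered deviations correlated at 0.740 and differently numbered ones at -0.740, which is a single value. The main culture fit did not use the pairs either. With the replicate block, 18 wound genes were lower and 1 higher (median -0.54), against 1268 and 1717 of all genes. Culture had 0 called (median 0.38), against 48 of all genes. The interaction had 0, against 88 of all genes lower and 353 higher, and Mrpl9 in culture was 0.094.

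Single log2 fold changes that changed sign had all missed the threshold; the cause was not tested. By library totals, Mrpl43 was -0.072 and Mrpl52 -0.37 in the wound; without the filter, Mrpl52 was -0.0042, and in culture Mrpl24 was 0.10, Mrpl9 0.12, Mrps30 0.19, Mrps31 0.055 and Mrps9 0.057. With 1 library left out, Mrpl41 ran from -0.18 to 0.0037 and Mrpl52 from -0.10 to 0.16 in the wound. In culture the ranges were -0.025 to 2.34 (Mrpl12), -0.049 to 0.97 (Mrpl13), -0.39 to 0.69 (Mrpl24), -0.041 to 1.59 (Mrpl36), -0.46 to 1.70 (Mrpl44), -0.18 to 0.76 (Mrpl45), -0.018 to 1.16 (Mrpl47), -0.48 to 1.04 (Mrpl9), -0.15 to 1.69 (Mrps18a), -0.45 to 2.33 (Mrps21), -0.54 to 0.38 (Mrps30), -0.45 to 0.67 (Mrps31), -0.094 to 0.99 (Mrps35), -0.012 to 1.58 (Mrps36) and -0.45 to 0.68 (Mrps9). In the simulation with 2 libraries a group and 200 changed genes, 0% of 4-fold changes were called, which limits the culture result.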
